A study of Mus musculus with 2 samples.

Results

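The matrix metalloproteinases (Mmp genes), the ADAMTS proteases (Adamts genes) and their tissue inhibitors (Timp genes) were followed across the cell classes of mouse lung. Members were taken by symbol from the deposited gene table, as every numbered Mmp, Adamts and Timp gene. This gave 45 of 32285 genes, made up of 22 Mmp, 19 Adamts and 4 Timp genes. Counts did not enter this rule, although it was set with earlier results of these data known.

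The cells came from lungs of C57B6/J mice and were sorted by flow cytometry for lack of CD45.2, which takes out most blood-derived cells, although the labels describe the material as total lung cells. One library was from wild-type (WT) mice and the other from mice labelled Plaur KO, in which the gene of the urokinase receptor uPAR is targeted. Both genotypes, 8 mice each in the study, received lipopolysaccharide with ovalbumin on days 0 and 7 and ovalbumin aerosol on day 14, so the WT library is also from challenged mice and no unchallenged group was analysed here. The labels give neither the number of mice pooled into a library nor the part of Plaur that was deleted. With 1 library per genotype no difference has a replicate check, no test was possible, and genotype and library cannot be told apart.

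Most matrix metalloproteinases are secreted as inactive proenzymes that cut collagens, elastin and other matrix and surface proteins, and the membrane-type members act at the cell surface. ADAMTS proteases are secreted enzymes that trim procollagens, cleave proteoglycans such as versican and aggrecan, or act on fibrillin-based fibres. The Timp proteins bind and block the metalloproteinases, and Timp3, which is held in the matrix, also blocks several ADAMTS proteases. uPAR holds urokinase at the cell surface, where plasmin is made, and plasmin can activate several proenzymes of the family. In the lung these enzymes are known from leukocyte passage, alveolar repair and airway remodelling.

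Of the 45 genes, 9 lie side by side on chromosome 9, from 7272514 to 7699585 (GRCm38), a stretch of 427 kb that holds Mmp13, Mmp12, Mmp1b, Mmp3, Mmp10, Mmp8, Mmp27, Mmp20 and Mmp7. Promoter stretches of 7 of them are shown because they hold a motif that was found in no other member with a promoter window. The windows are from RefSeq (GRCm38.p6) and run from 250 bases before a gene's start to 50 bases after it, and 31 of the 45 members were matched to one. The motif searched was TGANTCA, where N is any base, which reads as the same pattern on either strand. The usual site of AP-1 (pairs of Fos and Jun proteins) has C or G as the middle base, while the Mmp20 match has A. TGANTCA was found in 7 of the 9 genes of the chromosome 9 group and in 0 of the 22 members with a window elsewhere. Among all 32851 windows 7.81% held it, and among 27025 genes 8.97% had a window with it. The stretches around each match follow, 5′ to 3′ on the gene's strand, with the motif in capitals.
Mmp3 (chr9:7445749-7445809, + strand): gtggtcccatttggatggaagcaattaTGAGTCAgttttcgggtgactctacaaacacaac
Mmp10 (chr9:7502252-7502312, + strand): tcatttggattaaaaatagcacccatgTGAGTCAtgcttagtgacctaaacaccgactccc
Mmp13 (chr9:7272452-7272512, + strand): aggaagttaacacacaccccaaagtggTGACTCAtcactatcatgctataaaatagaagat
Mmp12, second start (chr9:7347303-7347363, + strand): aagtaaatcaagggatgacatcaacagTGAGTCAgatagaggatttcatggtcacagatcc
Mmp1b (chr9:7388086-7388146, - strand): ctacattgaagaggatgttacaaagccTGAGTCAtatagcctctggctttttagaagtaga
Mmp7 (chr9:7692000-7692060, + strand): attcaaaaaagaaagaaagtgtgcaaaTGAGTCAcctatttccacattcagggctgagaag
Mmp20 (chr9:7628109-7628169, + strand): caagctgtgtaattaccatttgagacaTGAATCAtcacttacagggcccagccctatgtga
The first base of the motif lies 46 bases before the start in Mmp3, 63 in Mmp10 and 35 in Mmp13. In Mmp12 it lies 44 bases before the second of its starts, and the window of its first start had no match. Mmp1b has it 93 bases before its start and Mmp20 95. In Mmp7 it lies 63 bases before the first of its starts, and the window of its second start had no match. These matches describe letters only. The genes with the motif were not counted alike: Mmp3 had 3615 unique transcript counts (UMIs) over all kept cells, Mmp13 40, Mmp12 11, Mmp1b 3 and Mmp10 2, while Mmp7 and Mmp20 had 0.

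The WT library held 11776 barcodes and 57028943 UMIs and the library labelled Plaur KO 9771 barcodes and 51529241 UMIs. Of these barcodes 10225 and 8934 were kept as cells (medians 4837 and 5537.5 UMIs), and the 45 genes gave 78928 and 41218 of the UMIs in them. The libraries had 30 barcode sequences in common. Plaur mRNA was counted in both, at 46.9 UMIs per 1000000 (CPM) in WT and 33.1 CPM in the other library, and since the assay reads transcript ends and the deleted part is not given, these counts do not test the label. By class Plaur went both ways. It was called higher, by the rule given below for members, in the KO-labelled library in AT2-like (2.23 and 17.5 CPM), airway secretory-like (8.44 and 18.5 CPM), ciliated-like (12.3 and 46.2 CPM) and venous-like cells (54.1 and 127 CPM) and in cluster 5 (40.9 and 130.2 CPM), against the direction of its label. It stood lower without a call in aerocyte-like (478 and 254 CPM), mesothelial-like (159 and 93.0 CPM) and adventitial fibroblast-like cells (65.1 and 35.3 CPM). The second library is therefore called KO-labelled, and each direction below rests on that label. Cells fell into 35 clusters, and 26 of them were named, into 17 classes, from marker genes. Unnamed clusters keep their number: cluster 13 carries fibroblast markers and is led by Saa3 and Ccl2, cluster 5 carries endothelial markers, and cluster 18 carries mesothelial and fibroblast markers. Stromal classes made up a smaller share of the KO-labelled library, with adventitial fibroblast-like cells at 7.08% of kept cells in WT and 2.67% in the KO-labelled library, and mesothelial-like cells at 7.63% and 2.70%. The epithelial alveolar type 2 (AT2)-like cells made up a larger share of it, 64.9% against 37.1%. Genes outside the family also moved across many classes at once. The airway secretory gene Scgb1a1 was called lower in the KO-labelled library in 8 of the 10 classes compared below, for example at 2601 and 208 CPM in aerocyte-like cells, and the chaperone gene Hspa8 stood higher in all 10, for example at 576 and 1487 CPM in the same class. The pan-immune gene Ptprc was low in both, at 25.4 and 5.73 CPM.

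Levels are UMIs summed over a class, per 1000000 UMIs of that class, with exact 95% Poisson intervals that cover counting error only. Since the 3′ assay counts 1 end per transcript and genes may differ in capture, classes are ordered within a gene and genes are not ranked against each other. Over both libraries 28 members had at least 100 UMIs, 6 had 20 to 99, 9 had 1 to 19 and 2 had none. Of the 28, 22 had the same top class in both libraries, among 21 classes and clusters with at least 20 cells in each. In 13 of the 28 the interval of the top class lay apart from that of the next class in both libraries.

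**Figure D1:**
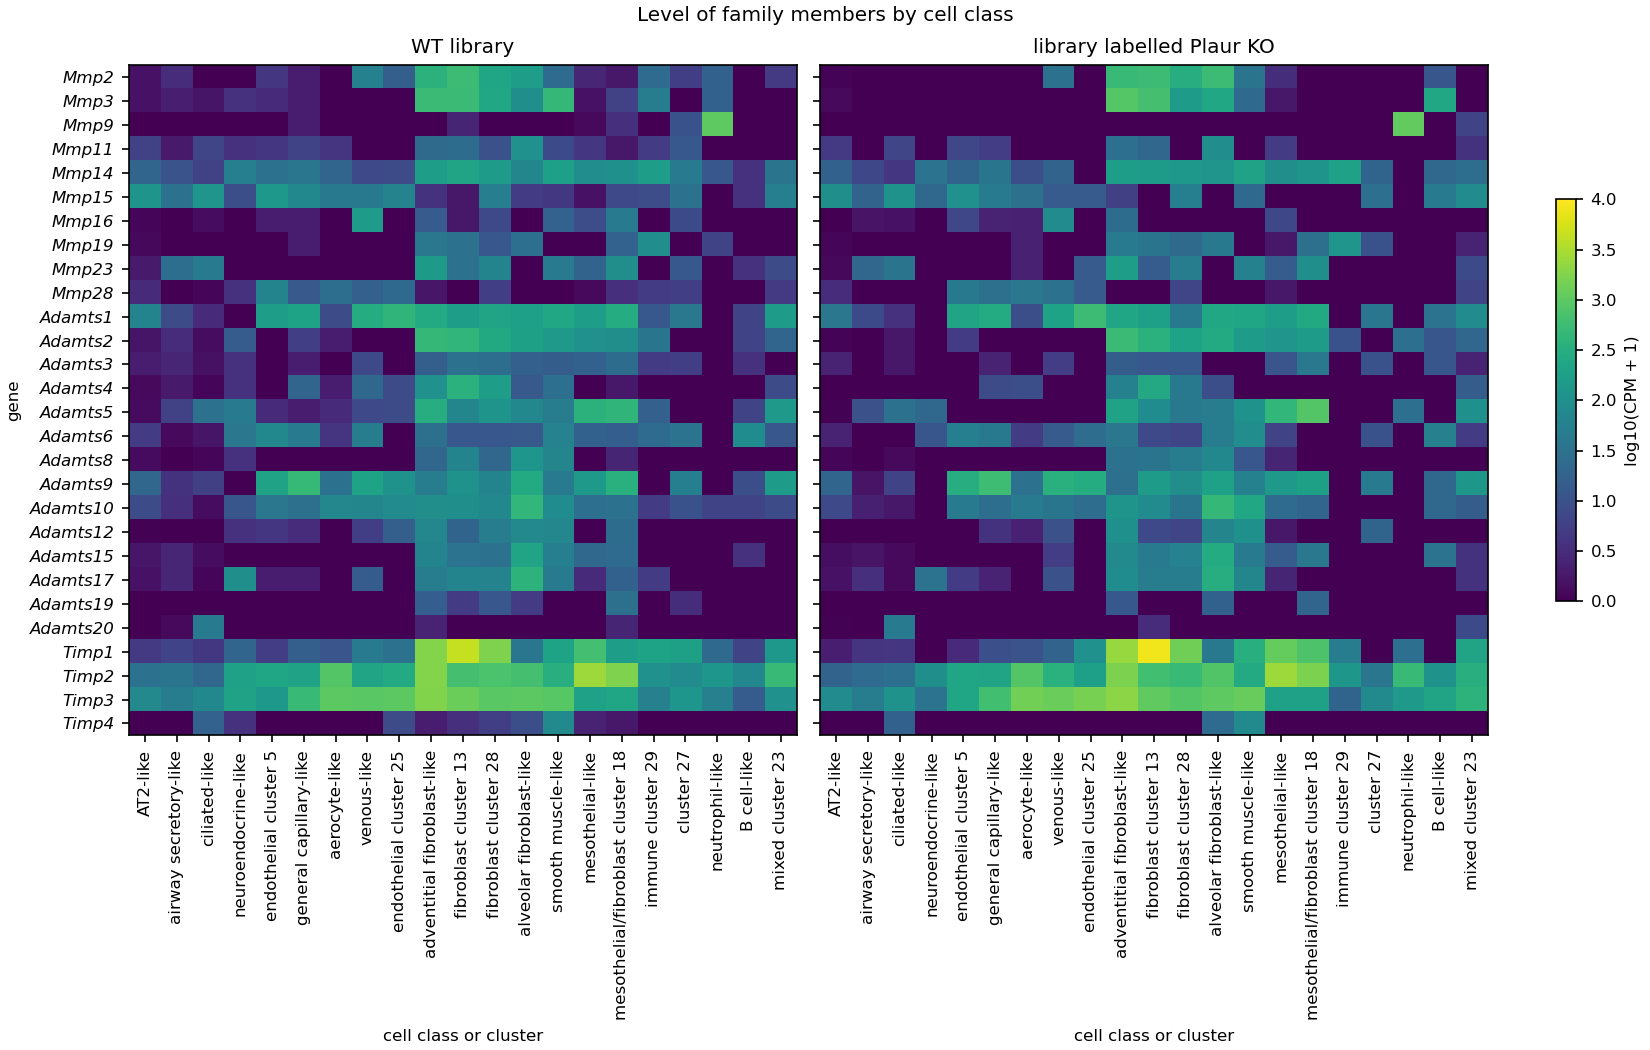
Level of the 28 members with at least 100 UMIs (rows) in 21 classes and clusters (columns), as log10(CPM + 1), for the WT library (left) and the KO-labelled library (right). The Timp2 and Timp3 rows are bright across fibroblast, mesothelial and endothelial columns, while Timp1 is brightest in fibroblast cluster 13 and Timp4 in smooth muscle-like cells. Mmp9 is brightest in the neutrophil-like column. Adamts20 is brightest in the ciliated-like column, where it stood at 45.0 CPM in WT and 41.8 CPM in the KO-labelled library.

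The inhibitors were highest in different stromal classes. Timp1 (chromosome X, 20870166 to 20874735, + strand), a secreted inhibitor of most soluble metalloproteinases, was highest in cluster 13, at 4426 CPM in WT and 8171 CPM in the KO-labelled library, and next in adventitial fibroblast-like cells, at 1808 and 2374 CPM. In cluster 13, 90.1% of WT cells and 93.1% of KO-labelled cells had a Timp1 UMI, against 2.32% and 0.741% of AT2-like cells, which are deeper (medians of 6382 and 6176 UMIs, against 3531 and 3207 in cluster 13). Thinned to 1000 UMIs per cell, the shares with a Timp1 UMI were 74.0% and 86.6% in cluster 13 and 0.289% and 0.155% in AT2-like cells. Fibroblasts were not all alike, since alveolar fibroblast-like cells had 36.3 and 40.7 CPM of it, from 9 and 5 UMIs. Timp2 (chromosome 11, 118301069 to 118355740, - strand), which blocks soluble enzymes and, with Mmp14, helps to activate the Mmp2 proenzyme, was highest in mesothelial-like cells, the lining of the lung surface, at 2569 CPM in WT and 2555 CPM in the KO-labelled library. Adventitial fibroblast-like cells came next at 1792 and 1633 CPM, then cluster 18 at 1659 and 1653 CPM. Aerocyte-like cells, the capillary cells of gas exchange, stood at 835 and 836 CPM, the highest of the 4 compared endothelial classes, and general capillary-like cells at 199.8 and 216 CPM.

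Timp3 (chromosome 10, 86300372 to 86349506, + strand) was highest in adventitial fibroblast-like cells, at 1769 CPM in WT and 2040 CPM in the KO-labelled library, with endothelial cluster 25 next at 976 and 1509 CPM. Aerocyte-like cells had 978 and 1403 CPM of Timp3, venous-like cells 943 and 1233 CPM, and general capillary-like cells 506 and 608 CPM. Mesothelial-like cells, the class highest in Timp2, had 192 and 193 CPM of Timp3. Timp4, with 214 UMIs in all, was highest in smooth muscle-like cells at 79.8 CPM (23 UMIs) and 77.7 CPM (7 UMIs), and then in ciliated-like cells at 17.2 and 16.8 CPM. Timp1, Timp3 and Timp4 each overlap a synapsin gene (Syn1, Syn3 and Syn2) on the other strand, as Mmp12 does Mmp1b and Mmp11 Chchd10, and the strand setting of the counting is not given in the sources used here. Over all kept cells Syn1 itself had 54 and 18 UMIs, against 14264 and 7693 of Timp1.

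**Figure D2:**
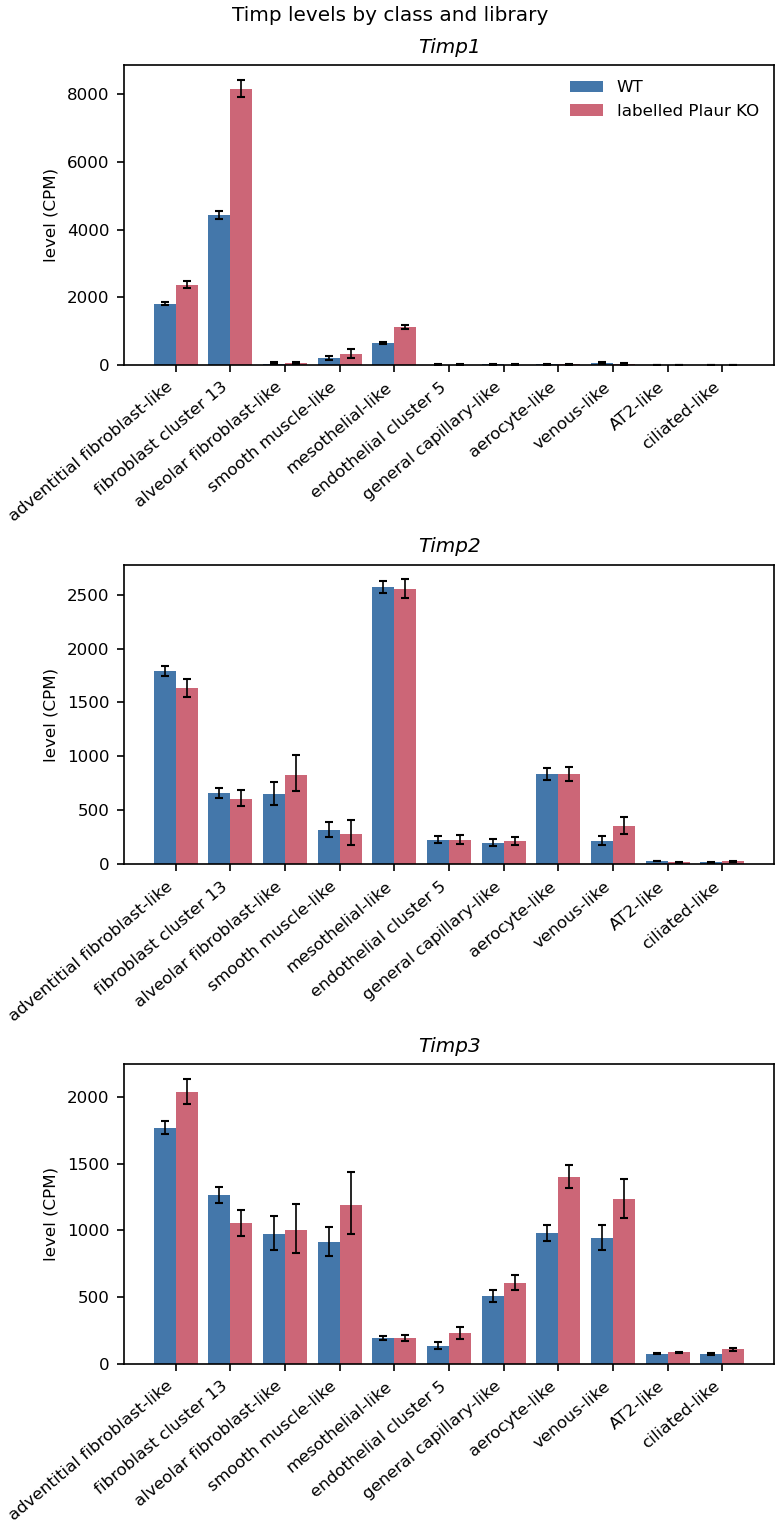
Level of Timp1, Timp2 and Timp3 (vertical axis, CPM, from 0) by class (horizontal axis) in the WT library (blue) and the KO-labelled library (red). Each bar is 1 library and each line its exact 95% Poisson interval; Timp1 peaks in fibroblast cluster 13 (4426 and 8171 CPM), Timp2 in mesothelial-like cells (2569 and 2555 CPM) and Timp3 in adventitial fibroblast-like cells (1769 and 2040 CPM).

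Among the secreted metalloproteinases, the gelatinase Mmp2, which cuts denatured collagen and basement membrane, was highest in cluster 13, at 555.5 CPM in WT and 558 CPM in the KO-labelled library, and then in adventitial fibroblast-like cells at 377 and 518 CPM. The other gelatinase, Mmp9, was highest in neutrophils. Neutrophil-like cells, of which the sort left 145 in WT and 23 in the KO-labelled library, had 1017 and 1094 CPM of Mmp9, and 66.2% and 73.9% of them had a UMI. The next cluster stood at 9.13 and 0 CPM. The neutrophil collagenase Mmp8 followed it, at 346 CPM (63 UMIs) and 337 CPM (12 UMIs) in neutrophil-like cells, and of the 16 UMIs of the leukocyte membrane-type enzyme Mmp25, 8 lay there, all in WT. These cells escaped the CD45.2 gate, and how many neutrophils the lungs held cannot be read from them.

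Mmp3 (chromosome 9, 7445822 to 7455975, + strand), the stromelysin that cuts many matrix proteins and activates other proenzymes, was highest in adventitial fibroblast-like cells, at 531 CPM in WT and 892 CPM in the KO-labelled library, and in cluster 13 at 539.5 and 663 CPM, so that in WT these 2 did not differ beyond their intervals. It was a gene of few cells with many copies. Of adventitial fibroblast-like cells 222 of 724 in WT and 89 of 239 in the KO-labelled library had an Mmp3 UMI, the highest single cells had 61 and 96, and the 10% of cells with the most UMIs held 74.4% and 73.2% of them. Since a Poisson interval takes UMIs as independent, the true uncertainty of such a level is wider than printed. The same limit holds for Timp1 and Adamts12 in this class. The 10% of cells with the most UMIs held 67.4% and 74.9% of the Timp1 UMIs and 72.4% and 90.8% of the Adamts12 UMIs. In smooth muscle-like cells the WT level of Mmp3, 458 CPM, came from 132 UMIs in 4.71% of 85 cells, against 22.2 CPM (2 UMIs) in the KO-labelled library. Of the chromosome 9 group Mmp3 alone had 100 or more UMIs over all kept cells. Mmp13, a collagenase, had 33 of its 40 UMIs in 3 WT smooth muscle-like cells, with 25 of them in 1 cell. Of the 11 UMIs of the macrophage elastase Mmp12, 10 fell in 2 KO-labelled cells of cluster 29, an immune cluster led by Chil3.

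Mmp11 (stromelysin 3) was highest in alveolar fibroblast-like cells, at 105 CPM in WT and 89.6 CPM in the KO-labelled library, with adventitial fibroblast-like cells next at 23.4 and 28.2 CPM. Mmp23, an enzyme that lacks the usual haemopexin-like end, was highest in adventitial fibroblast-like cells at 151 and 165 CPM, with cluster 18 next at 92.3 and 96.7 CPM. It was also present in ciliated-like cells at 41.5 and 33.5 CPM. Mmp19 was highest in cluster 29 at 90.5 and 120.1 CPM, from 23 and 13 UMIs, ahead of adventitial fibroblast-like cells at 38.5 and 43.5 CPM. Mmp28 (epilysin), described in epithelia, was highest here in endothelial cluster 5 at 63.6 and 40.7 CPM and next in aerocyte-like cells at 26.6 and 36.9 CPM.

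The membrane-type enzymes were spread over the compartments. Mmp14, the activator of Mmp2 at the cell surface, stood at 177 and 199.8 CPM in smooth muscle-like cells, 212 and 161 CPM in cluster 13, 173 and 194 CPM in cluster 29 and 174 CPM in both libraries in adventitial fibroblast-like cells, and these classes overlapped in their intervals. Mmp15 was high in some epithelial classes, reaching 123 and 112 CPM in ciliated-like cells and 118 and 98.0 CPM in AT2-like cells, with a UMI in 50.8% and 43.4% of AT2-like cells, and in endothelial cluster 5, at 137 and 104 CPM, while airway secretory-like cells had 31.1 and 17.9 CPM. Adventitial fibroblast-like cells had an Mmp15 UMI in 0.967% and 1.67% of cells. Mmp16 was highest in venous-like cells, at 153 CPM in WT and 83.1 CPM in the KO-labelled library, with cluster 18 next at 43.3 and 0 CPM. Of the 15 UMIs of Mmp24, a neuronal membrane-type enzyme, 12 were in neuroendocrine-like cells.

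Of the procollagen N-proteinases, Adamts2, which removes the amino propeptide of fibrillar procollagens, was a fibroblast gene, at 462 CPM in WT and 527 CPM in the KO-labelled library in adventitial fibroblast-like cells and 423 and 362 CPM in cluster 13. Adamts3 was low throughout, with its highest mean level in cluster 18 (24.5 and 38.7 CPM, from 30 and 4 UMIs) and then in cluster 13 (31.2 and 11.2 CPM). Adamts14 had 50 UMIs in all.

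The proteoglycan-cleaving members occupied different classes. Adamts4, the first of the aggrecanases to be named, was highest in cluster 13 at 355 and 259 CPM, above cluster 28, a fibroblast cluster with markers of AT2 cells, at 171 and 41.0 CPM. Adamts5, the other aggrecanase, was highest in cluster 18 at 419 and 851 CPM and next in mesothelial-like cells at 364 and 441 CPM. Adamts9 was highest in general capillary-like cells at 474 and 563 CPM, ahead of venous-like cells at 208 and 341 CPM. Adamts1 was broad, with its top in endothelial cluster 25 (venous and arterial markers) at 413 and 546 CPM and cluster 18 next at 303 and 271 CPM. Adamts15 was highest in alveolar fibroblast-like cells at 214 and 285 CPM, ahead of adventitial fibroblast-like cells at 63.6 and 81.2 CPM, and Adamts8 likewise at 125 and 73.3 CPM, ahead of cluster 13 at 62.4 and 33.5 CPM. Adamts20, a versican-cleaving member known from coat colour in mice (chromosome 15, 94270163 to 94465418, - strand), was highest in ciliated-like cells, which held 264 of its 271 UMIs in WT and 152 of its 160 in the KO-labelled library.

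Several of the remaining Adamts genes were highest in alveolar fibroblast-like or smooth muscle-like cells. Adamts10, tied to fibrillin fibres, stood at 452 CPM in WT and 464.5 CPM in the KO-labelled library in alveolar fibroblast-like cells, against 86.7 and 244 CPM in smooth muscle-like cells. Adamts17 stood at 387.5 and 309.6 CPM in alveolar fibroblast-like cells and at 48.9 and 85.9 CPM in adventitial fibroblast-like cells. Within the latter it stood at 130.7 and 178.6 CPM in cluster 15, against 4.44 and 6.55 CPM in cluster 9. Adamts6, the closest relative of Adamts10, was low and broad, at 59.0 and 88.8 CPM in smooth muscle-like cells and 88.0 and 53.3 CPM in B cell-like cells. Adamts12 stood at 69.0 and 102 CPM in adventitial fibroblast-like cells and at 69.4 and 99.9 CPM in smooth muscle-like cells. Adamts19 was highest in cluster 18, at 29.4 CPM (36 UMIs) and 19.3 CPM (2 UMIs), then in adventitial fibroblast-like cells at 14.7 and 11.8 CPM. Of the members with fewer than 100 UMIs and not yet described, Adamts7, Mmp17 and Mmp27 had 39, 63 and 54, and Adamts13, Adamts16, Adamts18 and Mmp21 had between 4 and 10.

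**Figure D3:**
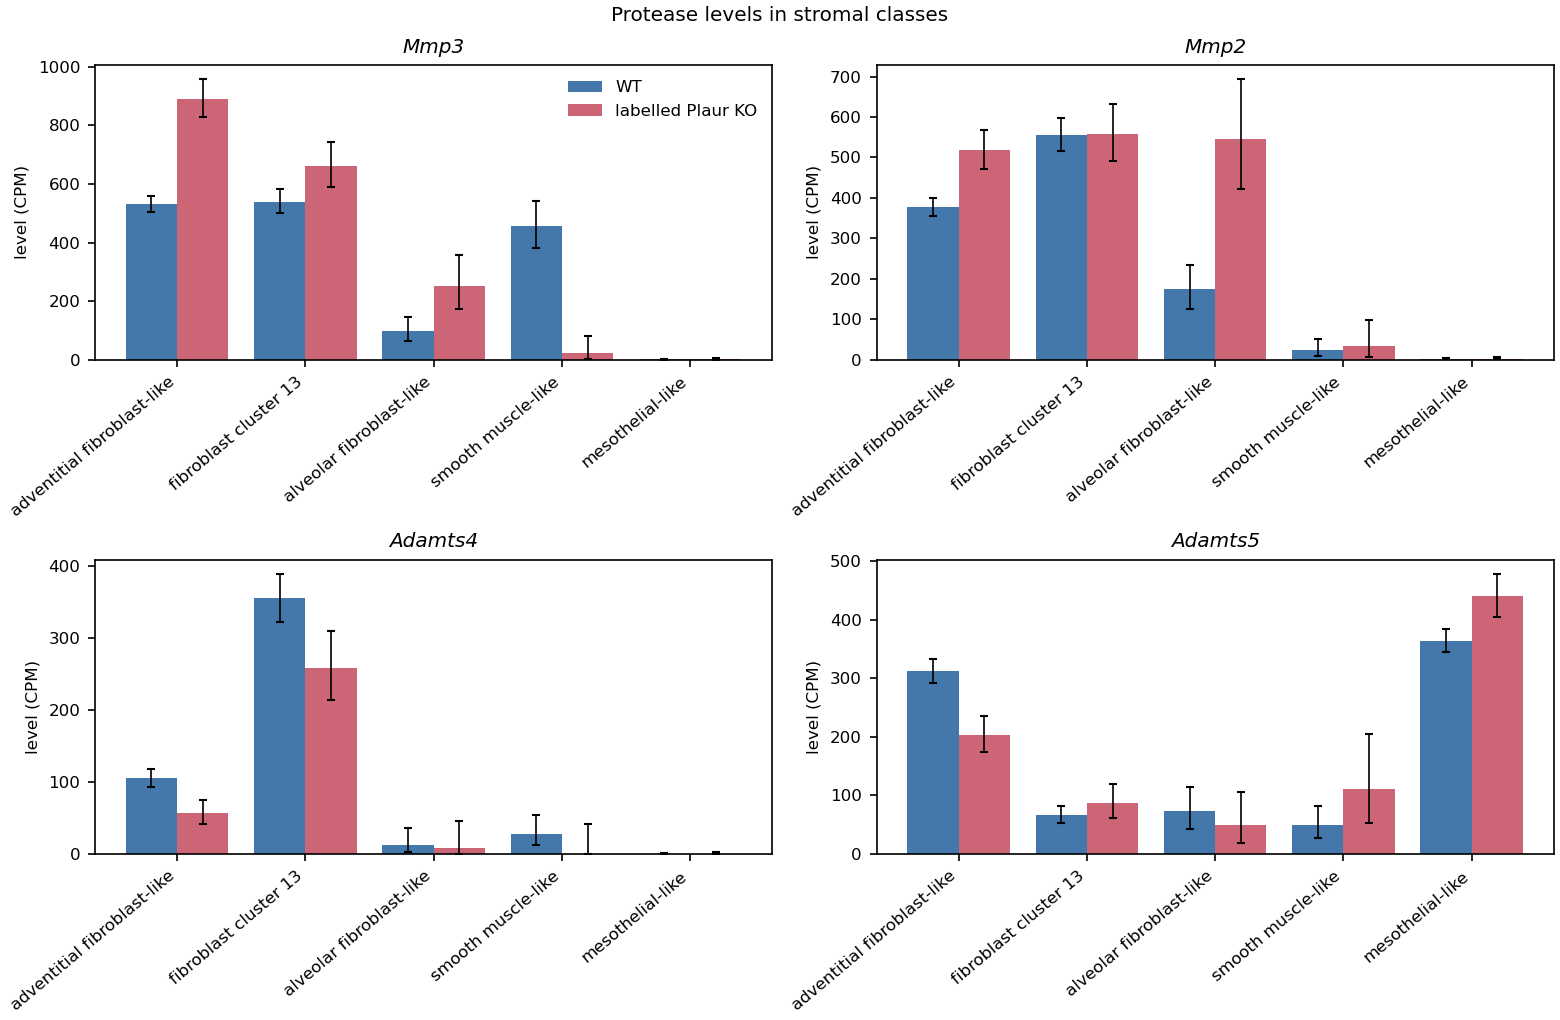
Level of Mmp3, Mmp2, Adamts4 and Adamts5 (vertical axis, CPM, from 0) in 5 stromal classes (horizontal axis) for the WT library (blue) and the KO-labelled library (red). Each bar is 1 library with its exact 95% Poisson interval; Mmp3 and Mmp2 stood higher in the KO-labelled adventitial fibroblast-like cells (892 against 531 CPM and 518 against 377 CPM), Adamts4 and Adamts5 lower (56.5 against 105 CPM and 204 against 312 CPM).

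The libraries were compared in 10 classes and clusters with at least 100 cells in each. A value was called when the gene had at least 20 UMIs over both libraries in the class, the log2 ratio of CPM (KO-labelled over WT) was at least 1 in size, and its exact 95% binomial interval did not hold 0. Of 132 member-by-class values with 20 UMIs, 1 was called higher in the KO-labelled library, against 0.969% called higher over all genes and classes, and 7 were called lower, against 2.53% of all. Those are 0.758% and 5.30% of the 132. The 28 members that enter this comparison are those with enough counts, and values of 1 gene in several classes are not independent. The other 124 values were not called.

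In adventitial fibroblast-like cells (724 WT and 239 KO-labelled cells) 24 members were measured and 0 were called, against 1.43% of 10090 genes called higher and 2.24% called lower. The median log2 ratio of the 24 was 0.20, against -0.01 over all genes, and several single members had intervals away from 0. Mmp3 had a log2 ratio of 0.75 (interval 0.62 to 0.88) and Mmp2 0.46 (0.29 to 0.62), both higher in the KO-labelled library by less than the threshold, which Mmp3 passed in 4 of 13 alternatives (up to 1.07). Timp1, the member with the most UMIs here (5030 and 2017), had 0.39 (0.32 to 0.47). The aggrecanases had the other sign, Adamts4 at -0.89 (-1.37 to -0.45) and Adamts5 at -0.62 (-0.86 to -0.38). Timp2 was close to level at -0.13 (-0.22 to -0.05), and Timp3 stood at 0.21 (0.13 to 0.28).

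The class holds 2 clusters whose shares differed between the libraries, cluster 9 with 432 and 108 cells and cluster 15 with 292 and 131. Among its leading genes cluster 9 had 8 adventitial fibroblast markers and 1 alveolar fibroblast marker. Cluster 15 had 4 and 2, and was led by the alveolar fibroblast marker Inmt. Within cluster 9 Mmp3 stood at 516 CPM in WT and 1029 CPM in the KO-labelled library, and within cluster 15 at 557 and 732 CPM, so it was higher in the KO-labelled library in both. Adamts4 was lower there in both clusters, at 100.4 against 67.7 CPM and at 113 against 43.4 CPM. Adamts5 was not. It stood at 442 and 301.5 CPM in cluster 9 but at 72.5 and 89.3 CPM in cluster 15, and Timp2 was level within each cluster (2302 and 2292 CPM, then 852.5 and 862.5 CPM). The part of the cluster shares in the pooled ratio was not tested further. Adamts9, at 48.2 and 29.4 CPM with a log2 ratio of -0.71 (-1.39 to -0.09), was called in 6 of 13 alternatives, among them -1.98 at a coarser clustering resolution and -2.05 with a looser cell filter, and stood at 0.15 with cells thinned to 1000 UMIs.

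In cluster 13 (324 WT and 131 KO-labelled cells) 20 members were measured and 1 was called, lower, against 1.46% of 7546 genes called higher and 2.21% called lower. The median of the 20 was -0.21, against -0.06 over all genes. This was Adamts3, which fell from 31.2 CPM (39 UMIs) in WT to 11.2 CPM (5 UMIs) in the KO-labelled library, a log2 ratio of -1.48 (-3.18 to -0.14). Timp1 carried most UMIs and had the largest shift in CPM, from 4426 to 8171, a log2 ratio of 0.89 (0.82 to 0.94) that did not reach the threshold. The 10% of cells with the most UMIs held 39.3% and 37.8% of the Timp1 UMIs. The interval covers counting error alone, and with the libraries clustered apart the ratio was 0.46. Adamts9 at 0.55 (0.12 to 0.97) and Mmp3 at 0.30 (0.10 to 0.50) also stood above 0 without a call. Other members stood level or below, with Mmp2 at 0.01 (-0.21 to 0.22), Timp3 at -0.27 (-0.42 to -0.12), Adamts4 at -0.46 (-0.76 to -0.16) and Mmp14 at -0.40 (-0.80 to -0.02).

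In mesothelial-like cells (780 WT and 241 KO-labelled cells) 14 members were measured and 1 was called, lower, against 0.922% of 10305 genes called higher and 2.96% called lower, with a median of -0.07 for members and for all genes alike. Adamts6 fell from 16.2 CPM (58 UMIs) to 5.52 CPM (7 UMIs), a log2 ratio of -1.56 (-2.94 to -0.42). Timp2, the member with the most UMIs (9171 and 3242), differed by -0.01 (-0.07 to 0.05), the narrowest interval of any member in this class. Timp1 stood at 639 CPM in WT and 1124 CPM in the KO-labelled library (0.81, 0.72 to 0.91). The class again joins 2 clusters in different shares, cluster 7 with 531 and 122 cells and cluster 16 with 249 and 119. Timp1 was low in cluster 7, at 155 and 229 CPM, and high in cluster 16, at 1480 and 1876 CPM, so within each cluster the libraries lay closer together than over the class. Adamts6 stood lower in the KO-labelled library in both, at 22.5 and 8.62 CPM in cluster 7 and, from 7 and 2 UMIs, at 5.37 and 2.90 CPM in cluster 16. Adamts1, at 171 and 165 CPM over the class, was 399 and 263 CPM in cluster 16 and 40.2 and 48.3 CPM in cluster 7, and Adamts5 was level within both clusters (234 and 233 CPM, then 590.3 and 617 CPM).

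**Figure D4:**
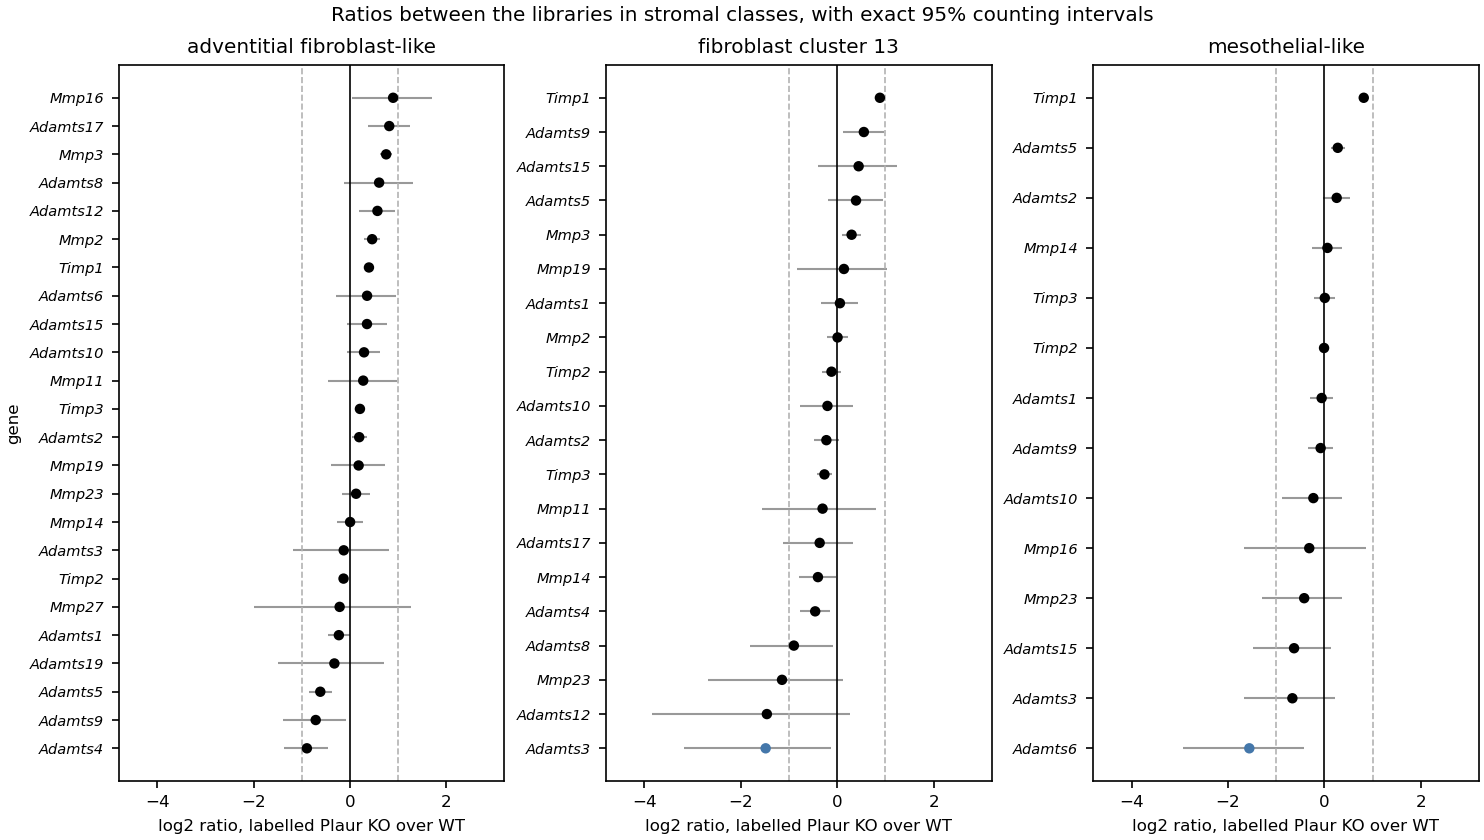
Log2 ratio of CPM, KO-labelled over WT (horizontal axis), of each member with at least 20 UMIs (vertical axis, sorted within a panel) in adventitial fibroblast-like cells, fibroblast cluster 13 and mesothelial-like cells. Points are ratios, grey lines exact 95% counting intervals, dashed lines a log2 ratio of 1 in either direction, and blue points values called lower; these are Adamts3 in cluster 13 and Adamts6 in mesothelial-like cells.

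Timp3 stood higher in the KO-labelled library in the 4 endothelial classes without reaching the threshold. It also did so in ciliated-like (0.57), adventitial fibroblast-like (0.21) and AT2-like cells (0.20). Its interval thus lay above 0 in 7 of the 10 compared classes, and below 0 in 1, cluster 13 (-0.27). The log2 ratio was 0.76 (0.38 to 1.14) in cluster 5, 0.52 (0.39 to 0.65) in aerocyte-like, 0.39 (0.16 to 0.61) in venous-like and 0.26 (0.07 to 0.46) in general capillary-like cells. The last of these turned sign, to as low as -0.25, in 2 of 13 alternatives. The Timp3 ratio in AT2-like cells turned sign in 1 of 13, to -0.16. Hspa8 moved the same way in these classes, with a log2 ratio of 1.37 in aerocyte-like cells, 1.14 in cluster 5, 1.09 in general capillary-like and 0.63 in venous-like cells, and Scgb1a1 the other way, from -3.32 in venous-like to -3.65 in aerocyte-like cells, and their part in the Timp3 values was not tested. Within aerocyte-like cells Timp3 was higher in the KO-labelled library in both clusters, at 797 and 1247 CPM in cluster 6 and 1614 and 1918 CPM in cluster 20. Adamts9 followed in cluster 5 (0.62, 0.30 to 0.94) and in venous-like cells (0.72, 0.26 to 1.17), and stood level in aerocyte-like cells (-0.03, -0.89 to 0.82). In general capillary-like cells, where Adamts9 was highest, its ratio was 0.25 and turned sign in 2 of 13 alternatives, to as low as -0.58. Summed markers of fibroblasts were lower in the KO-labelled library in all 4 endothelial classes, for example 22.5 against 2.74 CPM over 6 genes in aerocyte-like cells, where 1 and 4 of the 6 had no UMI.

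In general capillary-like cells 11 members were measured and 1 was called, higher, against 1.04% of 7859 genes called higher and 1.96% called lower. Mmp28 rose from 12.2 CPM (11 UMIs) in WT to 28.8 CPM (20 UMIs) in the KO-labelled library, a log2 ratio of 1.24 (0.11 to 2.45). It was called in 6 of the 9 alternatives in which it was measured, and not with the libraries clustered apart (1.04), nor with doublets kept (-0.26) or at the coarser resolution (-0.21), where the sign turned. Timp3 had the most UMIs there (456 and 422). In venous-like cells (208 and 104 cells) 10 members were measured and 1 was called, lower, against 1.55% of 5420 genes called higher and 2.64% called lower. The median of the 10 was -0.88, against 0.00 over all genes. Adamts6 fell from 47.4 CPM (21 UMIs) to 13.1 CPM (3 UMIs), a log2 ratio of -1.85 (-4.24 to -0.11). Mmp16, the membrane-type enzyme of this class, stood at 153 and 83.1 CPM (-0.89, -1.70 to -0.13), and Timp3 again had the most UMIs (418 and 282). In cluster 5, where 9 members were measured, none was called, against 1.03% of all genes called higher and 1.31% lower, and Adamts9 had the most UMIs (188 and 153). Timp2 stood there at 229.5 and 229.8 CPM. In aerocyte-like cells, with 7 members measured, none was called either, against 0.71% higher and 1.45% lower, and Timp3 had the most UMIs (957 and 1026).

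**Figure D5:**
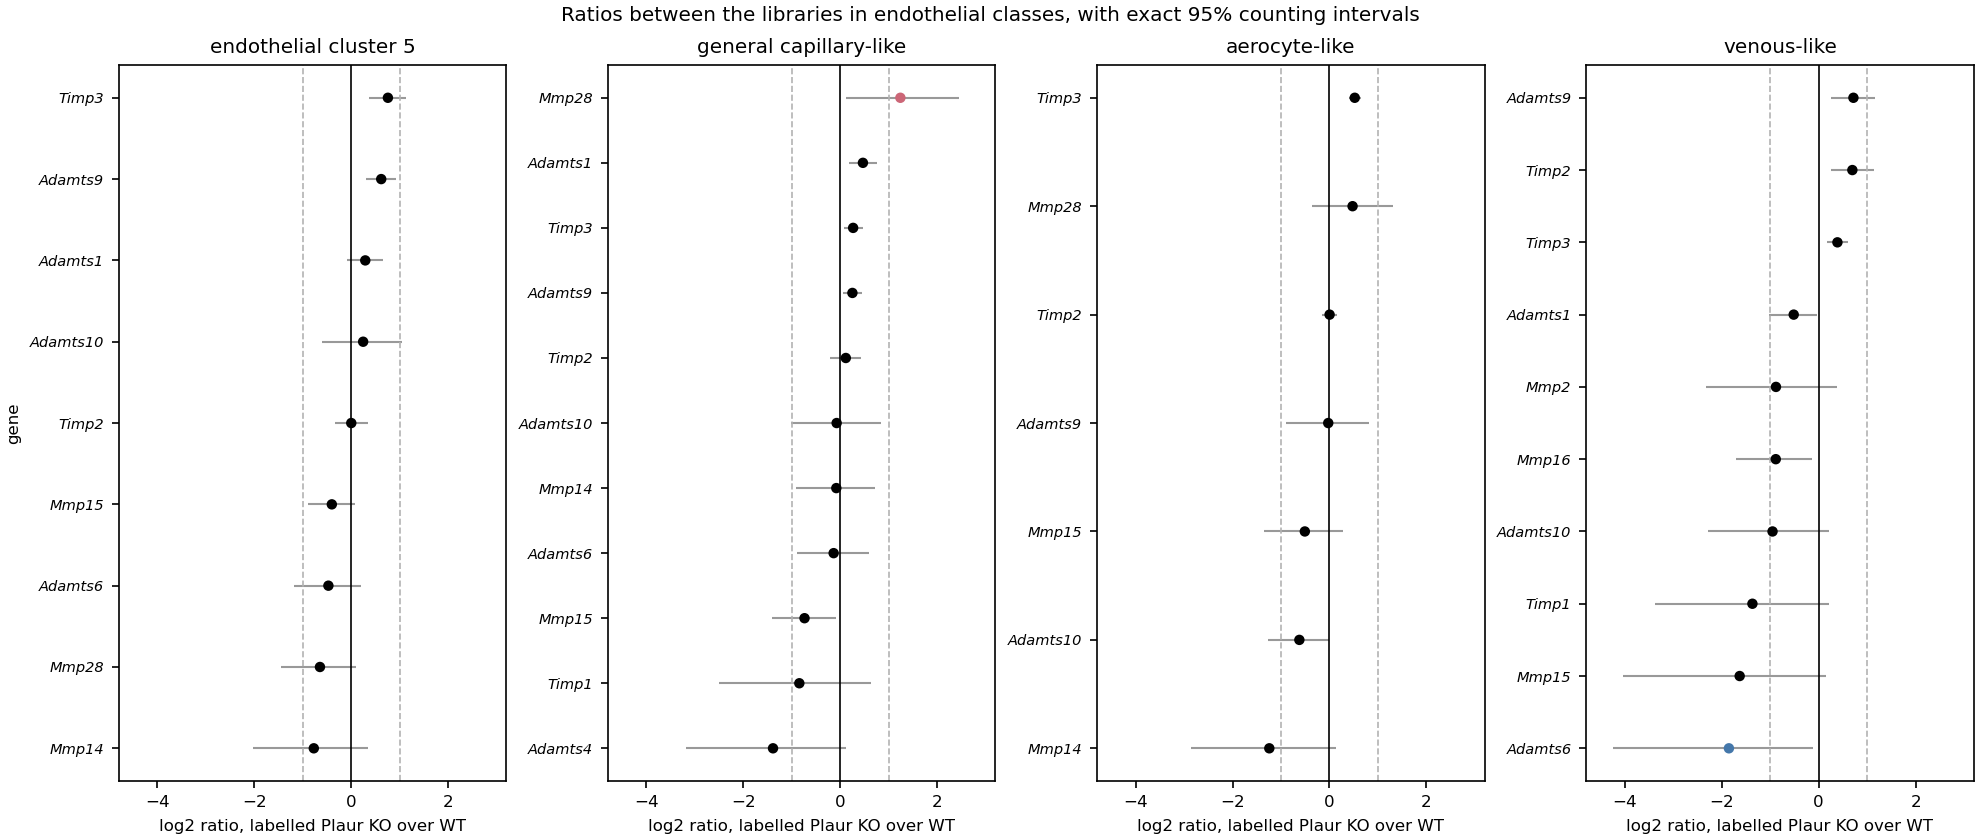
Log2 ratio of CPM, KO-labelled over WT (horizontal axis), of each member with at least 20 UMIs (vertical axis, sorted within a panel) in 4 endothelial classes. Points are ratios with exact 95% counting intervals in grey, dashed lines a log2 ratio of 1 in either direction, red a value called higher (Mmp28, 1.24) and blue a value called lower (Adamts6, -1.85); Timp3 lies to the right of 0 in each panel.

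In AT2-like cells (3799 WT and 5802 KO-labelled cells), the surfactant-making cells of the alveolus, 17 members were measured and 4 were called, all lower, against 0.477% of 13826 genes called higher and 2.78% called lower. Timp1 fell from 3.86 CPM (97 UMIs) in WT to 1.17 CPM (44 UMIs) in the KO-labelled library, a log2 ratio of -1.72 (-2.27 to -1.19). Adamts2 fell from 0.677 to 0.107 CPM (17 and 4 UMIs; -2.67, -4.70 to -1.05), and Mmp23 from 0.916 to 0.213 CPM (23 and 8 UMIs; -2.10, -3.47 to -0.89). All 3 were highest in fibroblasts in both libraries, where Timp1 for example reached 1808 and 2374 CPM in adventitial fibroblast-like cells. The fibroblast proteoglycan Dcn moved with them, from 4.98 CPM to 0.961 CPM in AT2-like cells, and the summed level of 6 fibroblast markers was 12.8 CPM in WT and 3.23 CPM in the KO-labelled library, with none of the 6 at 0. Their part in the 3 values was not tested. The Timp1 call was also lost with the looser cell filter, at -0.43, and with cells thinned to 1000 UMIs, at -1.02.

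The last of the 4, Adamts6, fell from 4.02 CPM (101 UMIs) to 1.44 CPM (54 UMIs), a log2 ratio of -1.48 (-1.99 to -0.99), and it was lower in the KO-labelled library in each of the 6 AT2-like clusters. In cluster 0 it stood at 2.81 and 2.50 CPM and in cluster 11 at 6.87 and 0.498 CPM (11 UMIs and 1 UMI). Adamts6 (chromosome 13, 104287835 to 104496695, + strand) was called lower in 3 of the 6 compared classes in which it was measured. Over all genes and classes 2.53% of values were called lower. Adventitial fibroblast-like cells, without a call, had 29.5 and 37.7 CPM (0.35, -0.28 to 0.96). General capillary-like cells, also without a call, had 35.83 and 36.45 CPM of Adamts6 in cluster 8 and 51.83 and 45.16 CPM in cluster 10. Adamts1 was lower in AT2-like cells by less than the threshold, at 63.5 and 36.9 CPM (-0.78, -0.89 to -0.68), and lower in each of the 6 clusters. Mmp15, the member with the most UMIs (2964 and 3674), stood at 118 and 98.0 CPM (-0.27, -0.34 to -0.20), below the median of all genes in this class, which was -0.10.

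In ciliated-like cells, where 12 members were measured, 0 were called, against 1.10% of 12276 genes called higher and 1.80% called lower. Adamts20 was level at -0.11 (-0.41 to 0.18), as was Mmp15, the member with the most UMIs (719 and 409), at -0.13 (-0.30 to 0.05), and Timp3 stood at 73.3 and 109.1 CPM (0.57, 0.37 to 0.77). In airway secretory-like cells (365 and 109 cells) 8 members were measured and 0 called, against 0.444% of 9228 genes called higher and 5.54% called lower. Timp3 had the most UMIs there (198 and 75) and the same level in both libraries, 47.7 and 47.9 CPM. Mmp15 stood at 31.1 and 17.9 CPM in this class (-0.80, -1.44 to -0.20), against a median of -0.25 over all its genes.

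Summed over whole libraries the inhibitors looked different from their values within classes. Timp2 stood at 404 CPM over all kept WT cells and at 152 CPM over all KO-labelled cells, a log2 ratio of -1.41. Over the 10 compared classes its ratio ran from -0.83 in AT2-like cells, where it was lower in each of the 6 clusters, and -0.51 in airway secretory-like cells, through -0.13 in adventitial fibroblast-like and -0.01 in mesothelial-like cells, to 0.50 in ciliated-like and 0.69 in venous-like cells. The Timp2 ratio turned sign in ciliated-like cells in 1 of 13 alternatives, to -0.18. In adventitial fibroblast-like cells it did so in 2 of 13, up to 0.055, and in venous-like cells it was as low as 0.14. Timp1 was 282 against 156 CPM over all cells. It stood lower in the KO-labelled library in AT2-like cells (-1.72) and higher there in cluster 13, mesothelial-like and adventitial fibroblast-like cells. The share of stromal cells, which carry both genes, was lower in the KO-labelled library, as given above, and its part in these totals was not tested.

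Companion genes of the same pathways, 45 in 7 lists, were set beside the family: ADAM sheddases, ADAMTS-like proteins, activators, inhibitors, an inducer, matrix substrates and transcription factors. The lists were chosen with earlier results of these data known. Of 273 companion values in the 10 classes, 3 were called higher and 24 lower, 1.10% and 8.79%, against 0.969% and 2.53% over all genes and classes. In AT2-like cells 9 of 34 measured companions were called, all lower (2.78% of all genes there), from Dcn at -2.37 to Pcsk6, a proprotein convertase, at -1.16, and in airway secretory-like cells 6 of 26, all lower (5.54% of all genes there), from Serping1 at -3.10 to Fbn1, which had 20 UMIs in WT and 0 in the KO-labelled library and was at least 2.52-fold lower against a floor of 3 UMIs. Dcn, Bgn, Eln and Fbn1, which are among them in both classes, are fibroblast matrix genes. In adventitial fibroblast-like cells 3 of 39 were called lower (2.24% of all genes there), from Adam33 at -2.03 to Pcsk6 at -1.13.

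In general capillary-like cells 3 of 21 companions were called, 1 higher (1.04% of all genes there) and 2 lower (1.96%), with tissue plasminogen activator (Plat) rising from 38.9 to 87.9 CPM (1.18) and the sheddase Adam19 falling the most (-1.62). In venous-like cells Adamtsl3 (-3.05) and Fosl2 (-1.06) were called lower of 20 (2.64% of all genes there). In aerocyte-like cells Fosl2 (-1.16) was the one called of 20, lower (1.45% of all genes there). In ciliated-like cells Adam19 (1.72) was called higher and Dcn (-1.31) lower of 30, against 1.10% and 1.80% of all genes there. In cluster 13 Fosl1, an AP-1 subunit, was the one called of 33, higher (1.46% of all genes there). Its log2 ratio was 1.72, from 11 and 13 UMIs. Other AP-1 genes were not called in cluster 13, with Fos at 742 and 424 CPM and Junb at 1127 and 743.5 CPM. In adventitial fibroblast-like cells Fos stood at 1227 and 1015 CPM and Jun at 904 and 1039 CPM. None of the companions was called in mesothelial-like cells (33 measured) or in cluster 5 (17 measured). Over all genes 0.922% were called higher and 2.96% lower in mesothelial-like cells, and 1.03% and 1.31% in cluster 5.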

How the data were processed

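The 2 deposited matrices are raw UMI counts, not normalized, that the authors wrote with Cell Ranger on mm10, per the submitters' processing notes. Those notes name versions 7.0.0 and 7.1.0, and the file headers name 7.0.0. The barcode filter and the handling of intronic reads are not given in the sources used here. About 16000 live cells were loaded per library, per the labels.

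Barcodes with 500 or more genes and no more than 15% mitochondrial UMIs entered, and Scrublet in scanpy 1.11.5 (expected share 8%) removed 617 WT cells (5.69%) and 175 KO-labelled cells (1.92%). Both libraries were clustered together (2000 variable genes, 30 components, 15 neighbours, Leiden at resolution 1.0), on genes other than the members, Plaur, and mitochondrial, ribosomal, globin or sex-linked ones, and cells outside named epithelial clusters were clustered a second time. A cluster took a class name when at least 3 markers of the class were among its 50 leading genes, 1 of them in the top 10, with no competing markers. The second round and the top-10 and compartment rules were chosen among several clusterings after the clusters were seen and before member values were examined. Levels are CPM of summed UMIs, with the library's total for the class as denominator, and log2 ratios have exact conditional binomial intervals. Where 1 library had no UMI, 3 UMIs were put in its place as a floor. Intervals cover counting error only.

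The members, companion lists and rules were chosen with earlier results of these data known. Every member was accounted for; members with at least 100 UMIs got their top 2 classes, and every called member and the member with most UMIs was named per compared class. Of companions, the highest and lowest called were named per class; Bgn, Eln, Fbn1, Fosl2, Fos, Jun and Junb were added once values were known. GENCODE M21 gave positions. Alternatives were a looser and a stricter cell filter, keeping doublets, resolutions 0.5 and 2, clustering each library apart or with members among the genes, TMM factors (edgeR 4.0.16), totals without the 50 most abundant genes, thinning to 1000 UMIs, means over cells and other UMI minimums. The ratio, its interval and the call rule were tested on simulated Poisson counts at the depth of AT2-like, adventitial fibroblast-like and venous-like cells. Such counts take UMIs as independent, and filtering, clustering and naming were not tested this way.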

Additional observations from a re-analysis of the deposited data

Results flagged for a closer look

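In 6 members with at least 100 UMIs in each of the classes concerned, the 95% interval lay above 0 in 1 class and below 0 in another. This form of comparison was set after the values were seen, the difference between the classes was not tested, and each value below is the log2 ratio (KO-labelled over WT) in the first class minus that in the second. For Timp1 it was 2.60, from 0.89 in cluster 13 to -1.72 in AT2-like cells. Timp1 was low in AT2-like cells, at 3.86 CPM in WT and 1.17 CPM in the KO-labelled library, and its ratio there reached -0.43 in 1 alternative. Summed fibroblast markers were also lower there, at 12.8 and 3.23 CPM, and their part was not tested. For Timp2 the difference was 1.52, between venous-like cells, where its ratio was as low as 0.14 among the alternatives, and AT2-like cells. For Adamts9 it was 1.43, between venous-like and adventitial fibroblast-like cells, and for Adamts1 1.25, between general capillary-like cells, where its sign turned in 2 of 13 alternatives, and AT2-like cells. For Timp3 it was 1.02, between cluster 5 and cluster 13. For Adamts5 it was 0.89, between mesothelial-like and adventitial fibroblast-like cells, 0.28 against -0.62. Within clusters this contrast was not kept, since Adamts5 was level in both mesothelial-like clusters (234 and 233 CPM, then 590.3 and 617 CPM) and stood higher in the KO-labelled library in adventitial cluster 15 (72.5 and 89.3 CPM).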

How the results depend on the processing

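No paired analysis was possible because each genotype has 1 library. Of 48 named member values, 40 kept their sign in every alternative in which they were measured, among 13 alternatives. These 48 were named because they were called, or had at least 100 UMIs and an interval away from 0. The alternatives that change only the UMI minimum count among the 13. They use the same ratios and intervals as the main setting, so they could not turn a sign. The count of values called higher, 1 as reported, was 2 with a looser filter (200 genes, 25% mitochondrial), 2 with doublets kept, 2 at resolution 0.5, 2 at resolution 2, 2 as a mean over cells, 2 with no UMI minimum, 3 with cells thinned to 1000 UMIs and 0 with at least 100 UMIs. The count called lower, 7 as reported, was 12 with the looser filter, 11 with at least 1000 genes, 12 with the libraries clustered apart, 12 as a mean over cells, 4 with thinned cells and 2 with at least 100 UMIs. The cause was not tested, except that the last asks for more UMIs. The number of member values measured and the share of all genes called can also differ between settings. These counts alone therefore do not describe a change in the members. Mmp28 in general capillary-like cells reversed to -0.26 with doublets kept and -0.21 at resolution 0.5. In the same class Adamts1 and Adamts9 turned sign in 2 of 13 alternatives each, to as low as -0.92 and -0.58. Mmp3 in adventitial fibroblast-like cells was called in 4 of 13, up to 1.07. Adamts6 was called in all 13 in AT2-like cells, in 9 of 10 in mesothelial-like and in 8 of 10 in venous-like cells. Scaling by TMM moved the ratios upward by 0.12 in AT2-like cells and 0.22 in airway secretory-like cells, and by less, upward or downward, in the others, from -0.03 in venous-like to 0.06 in ciliated-like cells, and left both counts at 1 and 7. Of the 8 called values, 6 rest on fewer than 100 UMIs, and none has a replicate check.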
